A study of Mus musculus with 112 samples.

Results

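Mice that wore a cast on one hindlimb were compared through their other limb, the control limb, according to the number each animal carries in the sample labels: 41-59, 21-40 or 1-20. Only control limbs entered, and they were selected on the level of the skeletal muscle actin gene Acta1: 5 of the 56 were left out because Acta1 was under 50% of the median over all 56, so 51 of the series' 112 libraries remained. They were 14 mice numbered 41-59 (6 males, 8 females), 17 mice numbered 21-40 (10 males, 7 females) and 20 mice numbered 1-20 (10 males, 10 females). All were Diversity Outbred mice, a stock in which every animal is genetically distinct, described as 16 weeks old and immobilized for 3 weeks. Because each control limb comes from an animal with a cast on the opposite side, every block shares that treatment, and no limb here is from an animal without a cast. The tissue was gastrocnemius, a calf muscle made mostly of fast fibres in the mouse, and total RNA was sequenced with strand information after removal of ribosomal RNA. The labels do not say what sets one run of numbers apart from the next (a cohort, a season, a dissection or a sequencing run), so any such difference cannot be told apart from the block. In each block the females carry the lower numbers, and males and females were deposited in separate count tables. Sex was therefore a term in every comparison of blocks.

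The choice of limbs used Acta1, so its levels are a description. Among the limbs left out, Acta1 was at 0.0104% of the median in mouse 52, 10.9% in mouse 48, 18.2% in mouse 26, 26.1% in mouse 44 and 37.8% in mouse 55. Just inside the limit were mouse 13 with 64.5%, mouse 21 with 73.6% and mouse 32 with 75.1%. Of the 5 limbs left out, 4 belong to mice 41-59 and 1 to mice 21-40. In the limbs kept, total counts ran from 1716485 (mouse 50) to 6070437 (mouse 51), both in mice 41-59. The muscle genes Ckm, Myh4 and Tnnt3 were abundant in every library kept, with a lowest level of 10697 CPM for Ckm (CPM is each count set on a scale shared by all libraries, after TMM normalization), 13471 CPM for Myh4 and 10697 CPM for Tnnt3. Each control limb was matched by expression to the immobilized limbs of the same sex only, so an exchange between sexes could not appear. The match used 150 genes, chosen in the other mice of that sex for agreement between their limbs. Of the control limbs, 54 of 56 correlated best with the limb of their own animal. The exceptions were males 15 and 16, each of which correlated best with the other's immobilized limb (r = 0.913 for the control limb of mouse 15 and 0.954 for that of mouse 16, against 0.169 and 0.218 with their own). Both are males of block 1-20, so an exchange would leave block and sex as they are.

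Muscle tissue holds more than fibres. Fibroblast-like fibro-adipogenic progenitors, tendon cells, macrophages, adipocytes, Schwann cells and endothelium each leave a recognizable set of transcripts, and bulk RNA cannot tell a change in the number of such cells from a change in RNA per cell. Several transcript groups in muscle also follow the state of the animal when tissue is taken: immediate early genes such as Egr1 and Fos are induced within minutes by contraction, handling or growth factors, and glucocorticoids and fasting act through FoxO factors. FoxO factors switch on ubiquitin ligase and autophagy genes and lower protein synthesis, and metallothioneins respond to metals and glucocorticoids.

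Block 1-20 stood apart from both later blocks, and the later blocks differed little from each other. Between mice 21-40 and mice 1-20, 1204 of 12025 tested genes passed an adjusted p of 0.05 (edgeR quasi-likelihood test, Benjamini-Hochberg adjustment), which is 10.0% of genes tested: 614 were higher (5.11%) and 590 lower (4.91%) in mice 21-40. Between mice 41-59 and mice 1-20, 422 genes passed (3.51%), 293 higher (2.44%) and 129 lower (1.07%) in mice 41-59. Only 9 genes passed between mice 41-59 and mice 21-40 (0.0748%), all higher in mice 41-59. At an unadjusted p under 0.05 the same comparisons had 3118, 2205 and 862 genes. A test for any difference among the blocks called 963 genes (8.01%). Leaving out 1 library at a time, the count for mice 41-59 against mice 1-20 ran between 212 (without mouse 53) and 608 (without mouse 59) and was 236 without mouse 46. Without males 15 and 16 it was 274. The count for mice 21-40 against mice 1-20 ran between 869 and 1433. Both contrasts against mice 1-20 use the same 20 control limbs, so their values are given side by side without an overlap. Transcript length and GC content moved with these calls and are described further on: an offset for both together changed the split of higher and lower calls between mice 21-40 and mice 1-20 to 302 higher and 533 lower.

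Genes that separated block 1-20 from both later blocks led the ranking. Gas6, which encodes a ligand of the TAM receptor kinases, spanned 85.8 to 184 CPM (median 119) in mice 41-59, 83.4 to 146 CPM (median 118) in mice 21-40 and 121 to 234 CPM (median 180.1) in mice 1-20. All 17 mice 21-40 and 13 of 14 mice 41-59 lay below the median of mice 1-20, although the ranges overlapped. Its log2 fold change was -0.60 ± 0.09 (SE) for mice 41-59 and -0.58 ± 0.08 for mice 21-40, each against mice 1-20, with adjusted p of 0.000119 and 1.56e-05 by edgeR. The amino acid transporter gene Slc7a8 went the other way, with 13.4 to 62.4 CPM (median 24.9) in mice 41-59, 12.7 to 64.5 CPM (median 29.1) in mice 21-40 and 5.27 to 27.4 CPM (median 10.9) in mice 1-20. Every mouse of both later blocks exceeded the median of mice 1-20. The log2 fold changes of Slc7a8 were 1.25 ± 0.23 and 1.50 ± 0.21, with adjusted p of 0.00126 and 1.56e-05 by edgeR.

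Other genes of the same shape were spread over unrelated roles. Lpin1, a phosphatidate phosphatase and transcriptional coregulator, was higher by 0.48 ± 0.10 in mice 41-59 and by 0.59 ± 0.09 in mice 21-40 on the log2 scale against mice 1-20, with 8 of 14 and 12 of 17 mice above the highest mouse of block 1-20. Bach1, the haem-regulated repressor of Hmox1, rose by 0.81 ± 0.15 and 0.96 ± 0.14, and the growth factor receptor gene Egfr by 0.98 ± 0.19 and 0.97 ± 0.19. Inmt, an indolethylamine methyltransferase gene, had medians of 11.0, 19.8 and 5.37 CPM in mice 41-59, mice 21-40 and mice 1-20, and 14 of 17 mice 21-40 exceeded every mouse of block 1-20. Among genes that fell, the epoxide hydrolase gene Ephx1 had medians of 29.1, 28.7 and 52.4 CPM in that order of blocks, with 11 of 14 and 13 of 17 mice below the lowest mouse of block 1-20. Aen, a p53-induced nuclease gene, had medians of 84.9, 73.5 and 114 CPM, and no mouse of either later block reached the median of mice 1-20. None of these 8 genes, Gas6 and Slc7a8 included, lost its call in either contrast when any 1 of the 51 libraries was left out. Because they were singled out from results of the same 51 libraries, that is a description and not a separate test.

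**Figure D1:**
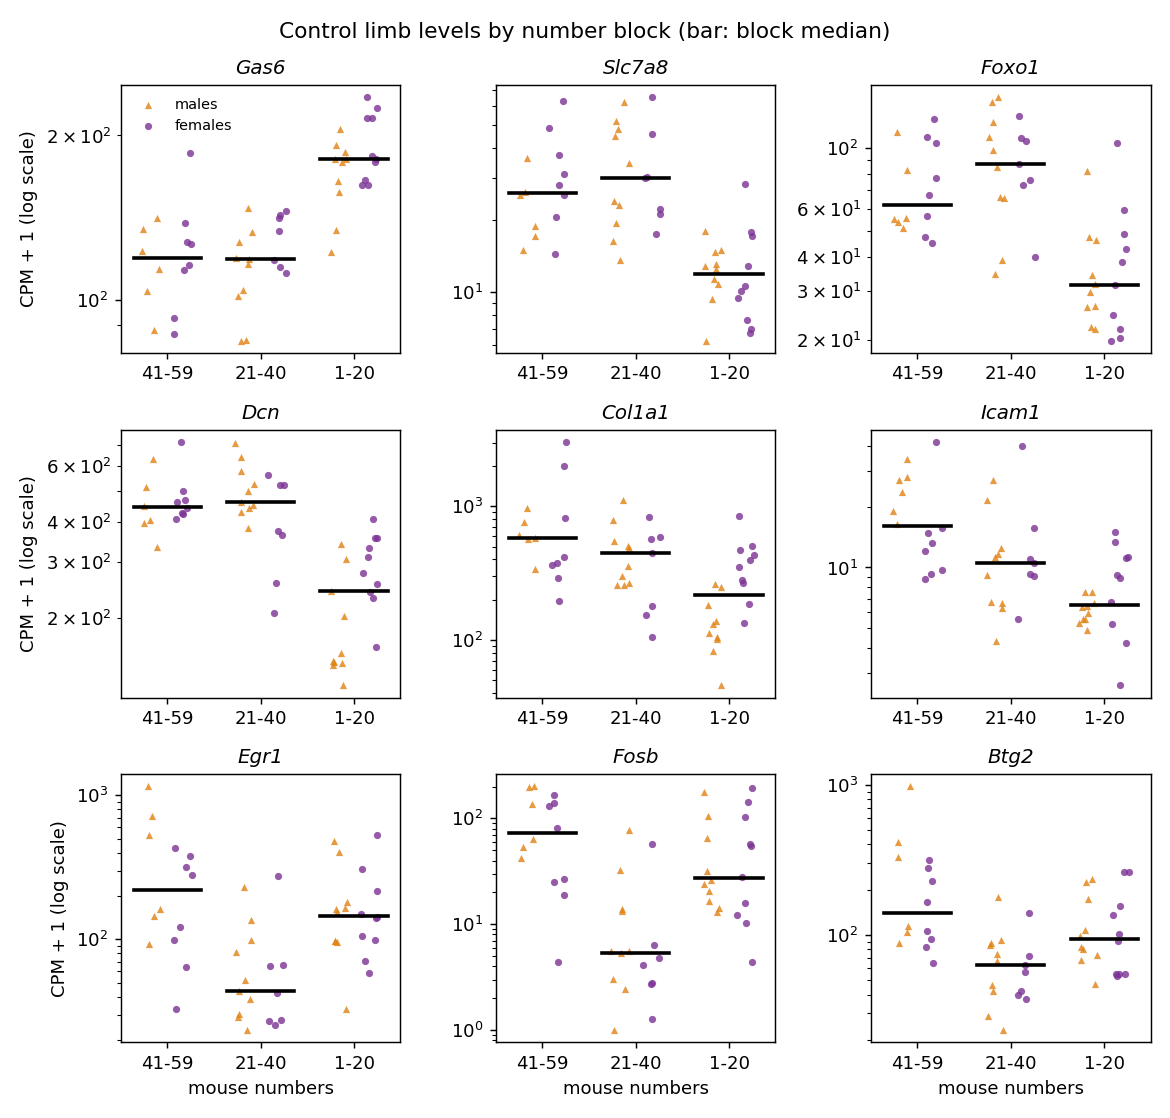
Level of 9 genes in each of the 51 control limbs, as CPM + 1 on a log axis, by number block (41-59, 21-40, 1-20 from left to right), with males as triangles, females as circles and a bar at the block median. Gas6 sits higher and Slc7a8, Foxo1 and Dcn lower in mice 1-20, while Egr1, Fosb and Btg2 are lowest in mice 21-40.

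Genes of the glucocorticoid and FoxO response were higher in both later blocks than in mice 1-20. The shares of all tested genes that rose were 2.44% in mice 41-59 and 5.11% in mice 21-40. Of 22 listed genes tested, 8 rose and 0 fell in mice 41-59 (Mt2, Foxo1, Mt1, Foxo3, Zbtb16, Pik3r1, Fkbp5 and Fbxo30), with a median log2 fold change of 0.44. In mice 21-40, 7 rose and 0 fell (Foxo1, Foxo3, Fkbp5, Klf9, Pik3r1, Sgk1 and Zbtb16), with a median of 0.42, against a median over all genes tested of -0.01 and 0.00. In a fit without 4 mice chosen after their values were seen (mouse 13 for high Ucp1, 46 and 50 for high collagen genes and 53 for high Il1b), 0 of the 22 passed in mice 41-59 (median 0.32) and 7 in mice 21-40 (median 0.42). With the adipocyte, tendon and nerve marker sums as covariates, 0 passed in mice 41-59 (median 0.29) and 2 in mice 21-40 (median 0.36). Over all genes tested, that fit called only 1 gene in mice 41-59 and 293 in mice 21-40. Foxo1 spanned 44.1 to 126 CPM (median 61.0) in mice 41-59, 33.7 to 152 CPM (median 86.4) in mice 21-40 and 18.9 to 103 CPM (median 30.8) in mice 1-20. All mice of both later blocks exceeded the median of mice 1-20. Foxo1 was higher by 0.94 ± 0.22 (adjusted p 0.00998) and 1.25 ± 0.21 (adjusted p 0.000138) by edgeR, and its relative Foxo3 by 0.55 ± 0.14 and 0.64 ± 0.13. Fkbp5, a co-chaperone of the glucocorticoid receptor, had medians of 102, 125 and 59.0 CPM in mice 41-59, mice 21-40 and mice 1-20. Its call held against each library left out for mice 21-40 but was lost for mice 41-59 in 16 of 51 such fits, at most to an adjusted p of 0.0850 by edgeR.

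Of the ubiquitin ligase genes downstream of FoxO factors, Fbxo30 was called in mice 41-59, as above, while Fbxo32 and Trim63 were not called. Fbxo32 had a log2 fold change of 0.10 ± 0.17 in mice 41-59 and 0.28 ± 0.16 in mice 21-40, and Trim63 of 0.47 ± 0.24 and 0.31 ± 0.23, with adjusted p between 0.254 and 0.797 by edgeR. The receptor gene Nr3c1 was higher in mice 21-40 by 0.48 ± 0.10 (adjusted p 0.00162 by edgeR) and by 0.22 ± 0.10 in mice 41-59, where it did not pass. Of the fasting and fatty acid switch list, 1 of 27 genes passed in mice 21-40, the uncoupling protein gene Ucp3, and 0 of 27 in mice 41-59. Clock genes, which set the level of many of these transcripts over the day, had 0 calls in any contrast. The output gene Dbp had medians of 38.0, 23.8 and 35.1 CPM in mice 41-59, mice 21-40 and mice 1-20, with ranges that overlapped widely. Other clock genes leaned further in mice 21-40: 16 of 17 exceeded the median of mice 1-20 for Per2, and 15 of 17 lay below it for Nr1d1. Without mice 13, 46, 50 and 53, 1 of 13 genes of the negative limb and outputs was called higher in mice 21-40.

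Metallothionein genes carried part of the difference for mice 41-59. Mt2, a small cysteine-rich metal-binding protein gene, spanned 12.0 to 654 CPM (median 54.9) in mice 41-59, 8.79 to 127 CPM (median 53.3) in mice 21-40 and 6.02 to 138 CPM (median 15.7) in mice 1-20. Mice 53, 45, 46, 51 and 47 were the 5 highest of all 51 limbs, and the rest of block 41-59 lay within the range of mice 1-20. Mt2 was higher by 2.27 ± 0.49 in mice 41-59 (adjusted p 0.00614) and by 1.12 ± 0.49 in mice 21-40, which did not pass (adjusted p 0.130, edgeR). Mt1 was higher by 1.60 ± 0.41 in mice 41-59 (adjusted p 0.0191), and its call was lost without mouse 53 (adjusted p 0.0883, edgeR). Both genes are textbook targets of the metal-responsive factor, whose element was searched for as TGCACNC or TGCGCNC on both strands in the 250 bases before the RefSeq start. Their upstream sequences are shown because the genes lie side by side on chromosome 8 and moved in the same mice, with matches in capitals, on GRCm38 from RefSeq, at chr8:94178839-94179088 (Mt1) and chr8:94172368-94172617 (Mt2), both on the plus strand.
Mt1: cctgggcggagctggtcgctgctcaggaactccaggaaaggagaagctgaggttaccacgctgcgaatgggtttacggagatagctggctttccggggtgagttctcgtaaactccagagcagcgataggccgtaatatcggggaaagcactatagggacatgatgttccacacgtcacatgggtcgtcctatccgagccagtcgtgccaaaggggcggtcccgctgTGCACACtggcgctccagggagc
Mt2: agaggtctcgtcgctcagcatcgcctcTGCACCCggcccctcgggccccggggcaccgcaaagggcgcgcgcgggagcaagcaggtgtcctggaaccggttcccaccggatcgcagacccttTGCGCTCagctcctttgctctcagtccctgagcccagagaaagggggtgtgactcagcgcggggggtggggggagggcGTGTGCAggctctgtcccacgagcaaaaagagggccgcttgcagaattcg
The Mt1 window holds 1 match, ending 16 bases before the start, and the Mt2 window holds 3, of which the nearest ends 43 bases before it. Such a match occurred in 5749 of 27025 promoters (21.3%), so its presence is a description of these windows. Bases after the RefSeq start were not searched, so the counts may not give all elements of either gene.

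Connective tissue genes were higher in both later blocks. For comparison, 2.44% of all genes tested rose in mice 41-59 and 5.11% in mice 21-40. Of 25 fibrillar and associated matrix genes tested, 13 rose and 0 fell in mice 41-59 (median log2 fold change 0.69), and 10 rose and 0 fell in mice 21-40 (median 0.56), each against mice 1-20. Dcn, the small proteoglycan decorin that binds collagen fibrils, spanned 333 to 714 CPM (median 444) in mice 41-59, 205.5 to 709 CPM (median 461) in mice 21-40 and 121 to 407 CPM (median 241) in mice 1-20. The ranges overlapped, but 11 of 14 mice 41-59 and 12 of 17 mice 21-40 exceeded every mouse of block 1-20. Dcn was higher by 0.95 ± 0.15 (adjusted p 0.000260) and 0.98 ± 0.15 (adjusted p 2.90e-05, edgeR). Col1a1, the main chain of type I collagen, spanned 194 to 3039.6 CPM (median 576) in mice 41-59, 104 to 1106 CPM (median 449) in mice 21-40 and 44.7 to 839 CPM (median 216) in mice 1-20. Mice 46 and 50 were the highest of all, and the ranges of the blocks overlapped. Its log2 fold changes were 1.67 ± 0.33 and 1.03 ± 0.33, with adjusted p of 0.00241 and 0.0343 by edgeR. Col1a2, Fmod, Thbs2 and Lum passed in both contrasts, and the matricellular gene Tnc passed in mice 41-59 only, without a call between mice 41-59 and mice 21-40.

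Genes of the cells that make or remodel matrix moved in the same direction, in lists that share some called genes. Lum counts in both the matrix and the progenitor lists, and Fmod and Tnc count in both the matrix and the tendon lists. Ctss, called in mice 21-40, counts in both the protease and the macrophage lists. Among 16 fibro-adipogenic progenitor markers 6 rose and 0 fell in mice 41-59, and 5 rose and 0 fell in mice 21-40, led by the receptor gene Pdgfra (0.76 ± 0.16 and 0.98 ± 0.16) and the actin-severing protein gene Gsn (0.68 ± 0.16 and 0.69 ± 0.15). Tendon markers had 10 of 13 higher in mice 41-59 (median 1.26) and 4 of 13 in mice 21-40 (median 0.69), with 0 lower. Kera, a corneal and tendon proteoglycan gene, had medians of 22.8, 15.6 and 7.55 CPM in mice 41-59, mice 21-40 and mice 1-20. Of 20 matrix protease and inhibitor genes, 5 rose in mice 41-59 and 7 in mice 21-40 and 0 fell, among them the inhibitor Timp2, the plasminogen activator Plau and the lysosomal collagenase Ctsk in both. Basement membrane genes had 2 of 13 higher in mice 41-59 (Col4a1 and Col4a2) and 3 of 13 in mice 21-40 (Nid1, Nid2 and Lama2). The shares higher among all genes tested were 2.44% and 5.11% in these blocks.

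The summed level of the marker lists moved with these calls. Tendon markers summed to 1048 ± 533 CPM in mice 41-59 (SD, n = 14), 755 ± 294 CPM in mice 21-40 (n = 17) and 452 ± 321 CPM in mice 1-20 (n = 20), and 12 of the 13 were above 0 in every library. Mice 41-59 differed from mice 1-20 by a two-sided permutation test within sex (adjusted p 0.00264), and mice 21-40 did not pass (adjusted p 0.0565). Sums of fibro-adipogenic progenitor markers were 1684 ± 340, 1669 ± 359 and 1161 ± 391 CPM in the same order of blocks, and both later blocks passed against mice 1-20 (adjusted permutation p 0.00264 and 0.00784). Fmod and Tnc belong to both the matrix and the tendon lists. With the adipocyte, tendon and nerve sums as covariates, 0 of 25 matrix genes passed in mice 41-59 and 2 in mice 21-40, with median log2 fold changes of 0.25 and 0.29. Calls were lost over all genes in that fit, with 1 left in mice 41-59 and 293 in mice 21-40, so the loss is not particular to matrix genes. The part that tendon content of the samples has in these calls was not tested further.

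**Figure D2:**
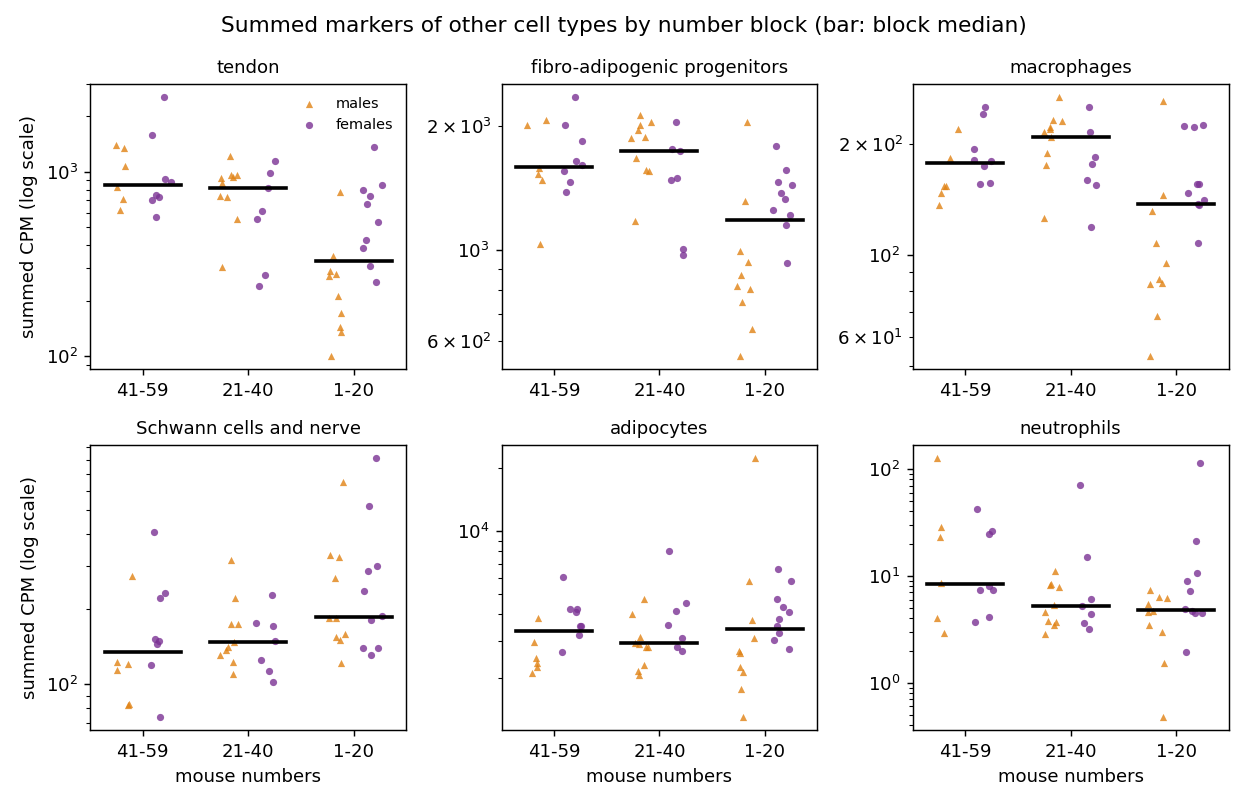
Summed CPM of the markers of 6 cell types in each control limb, on a log axis, by number block (41-59, 21-40, 1-20 from left to right), with males as triangles, females as circles and a bar at the block median. Tendon and fibro-adipogenic progenitor sums are lowest in mice 1-20, and the adipocyte sum has 1 mouse of block 1-20 far above the rest.

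Connective tissue calls for mice 41-59 were fewer without mice 13, 46, 50 and 53, of which the last 3 belong to that block and none to mice 21-40. Mice 46, 50 and 53 were among the 5 highest of all 51 limbs in the tendon sum, at 2555, 1575 and 1354 CPM, while mouse 13 had 213 CPM there. Without these 4 mice, 2 of 25 matrix genes and 1 of 13 tendon genes rose in mice 41-59, while 12 and 3 rose in mice 21-40. The medians of the matrix list were then 0.63 and 0.71. Total calls for mice 41-59 against mice 1-20 were then 108.

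Inflammatory genes also rose in mice 41-59. Among all genes tested, 2.44% rose in mice 41-59 and 5.11% in mice 21-40, each against mice 1-20. Of 18 inflammation and acute phase genes tested, 10 rose and 0 fell against mice 1-20 (median log2 fold change 1.00), and in mice 21-40 4 rose and 0 fell (median 0.19). Without mice 13, 46, 50 and 53, 2 of 16 rose in mice 41-59 (median 0.86) and 5 of 16 in mice 21-40 (median 0.23). With the marker sums as covariates, 0 of 18 rose in either block, with medians of 0.77 and 0.17, and 1 fell in mice 21-40. Over all genes tested, 1 passed in mice 41-59 and 293 in mice 21-40 with these covariates. Icam1, an adhesion molecule of activated endothelium, spanned 7.81 to 40.9 CPM (median 15.1) in mice 41-59, 3.34 to 38.9 CPM (median 9.50) in mice 21-40 and 1.61 to 13.9 CPM (median 5.56) in mice 1-20. All 14 mice 41-59 lay above the median of mice 1-20, and 8 of them above its highest mouse. Icam1 was higher by 1.53 ± 0.27 in mice 41-59 (adjusted p 0.00102) and by 0.88 ± 0.26 in mice 21-40 (adjusted p 0.0254, edgeR), where the call was lost without mouse 23. Vcam1, a second adhesion molecule, had medians of 9.02, 5.34 and 3.42 CPM in mice 41-59, mice 21-40 and mice 1-20 and passed in both contrasts. Selp, the P-selectin gene, reached 44.7 CPM in mouse 53 and 29.5 CPM in mouse 45, 23.0 CPM in mouse 33 of block 21-40, and at most 3.83 CPM in mice 1-20.

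Much of this signal came from a few animals. Cxcl1, a neutrophil chemoattractant gene, had a median of 4.52 CPM in mice 41-59, 0.761 CPM in mice 21-40 and 1.09 CPM in mice 1-20, with 69.7 CPM in mouse 53. The cytokine gene Il1b had 47.7 CPM in mouse 53 and at most 5.00 CPM elsewhere in block 41-59, 0.839 CPM in mice 21-40 and 6.27 CPM in mice 1-20. Without mouse 53 the calls of Cxcl1, Il1b, Runx1, Sgms2, Adamts4, Cd14 and the granulocyte receptor gene Csf3r against mice 1-20 were lost, while those of Icam1, Vcam1, Selp, Socs3 and Myc held. Neutrophil markers summed to 128 CPM in mouse 53, the highest of block 41-59, and the block medians were 8.30, 5.25 and 4.82 CPM in mice 41-59, mice 21-40 and mice 1-20. Single animals of the other blocks were high as well, with 70.9 CPM in mouse 24 of block 21-40 and 114 CPM in mouse 2 of block 1-20. The defining neutrophil markers Ly6g, Ngp, Camp, Ltf and Mmp8 were at 0 in more than 50% of libraries.

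Some macrophage markers rose in each later block, with no call between mice 41-59 and mice 21-40. For comparison, 2.44% of all genes tested rose in mice 41-59 and 5.11% in mice 21-40. Of 17 tested, 3 rose in mice 41-59 (median 0.44) and 6 in mice 21-40 (median 0.70), with 0 lower in either. The 3 in mice 41-59 were Cd163, Lyve1, which is also in the lymph vessel list, and Cd14, whose call was lost without mouse 53. Without mice 13, 46, 50 and 53, 1 of 17 rose in mice 41-59 (median 0.54) and 9 in mice 21-40 (median 0.81). With the marker sums as covariates, 0 and 4 rose (medians 0.47 and 0.57). The summed markers were 181 ± 35.1 CPM in mice 41-59, 197 ± 41.7 CPM in mice 21-40 and 139 ± 57.3 CPM in mice 1-20 (SD). That sum passed against mice 1-20 in mice 21-40 (adjusted permutation p 0.0202) and did not pass in mice 41-59 (adjusted permutation p 0.0872). Cd163, a scavenger receptor of resident macrophages, spanned 4.11 to 12.0 CPM (median 8.32) in mice 41-59, 1.88 to 18.9 CPM (median 9.39) in mice 21-40 and 0.607 to 14.7 CPM (median 3.01) in mice 1-20. It was higher by 1.09 ± 0.27 (adjusted p 0.0176) and 1.30 ± 0.26 (adjusted p 0.00210, edgeR). All 14 mice 41-59 and 16 of 17 mice 21-40 exceeded the median of mice 1-20. Class II antigen presentation genes H2-Aa, H2-Eb1, H2-Ab1 and Cd74 were called higher in mice 21-40 against mice 1-20, but each call rested on mouse 23. H2-Aa had 237 CPM in that mouse and at most 26.5 CPM in the other mice 21-40, and without it the adjusted p was 0.123 by edgeR. A lean was not limited to mouse 23. Counting it, 13 of 17 mice 21-40 exceeded the median of mice 1-20 for H2-Aa, 16 for H2-Eb1, 14 for H2-Ab1 and 14 for Cd74.

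Some immediate early genes differed between mice 21-40 and each of the other blocks. Among all genes tested, 4.91% fell in mice 21-40 and 2.44% rose in mice 41-59, each against mice 1-20. Between mice 41-59 and mice 21-40, 0.0748% were higher. Of 21 tested, 6 fell in mice 21-40 against mice 1-20 (Fosb, Ier2, Egr1, Fos, Atf3 and Egr2; median log2 fold change -0.51), and 5 rose in mice 41-59 against mice 21-40 (Btg2, Egr2, Egr1, Fosb and Ier5; median 1.02). Those 5 were among the 9 genes called between the later blocks, the others being the stress gene Gadd45b, Csf3r, Cxcl1 and Il1b. Against mice 1-20, mice 41-59 had 3 higher (Myc, Ier5 and Fosl2) and a median of 0.67. Without mice 13, 46, 50 and 53, 7 of 21 fell in mice 21-40 against mice 1-20 (median -0.55). In that fit 0 of 21 were called between the later blocks (median 0.67). With the adipocyte, tendon and nerve marker sums as covariates, these counts were 2 (median -0.57) and 0 (median 0.79). In males alone and in females alone, 0 of 21 were called between the later blocks. Egr1, a zinc finger factor induced within minutes of stimulation, spanned 31.8 to 1151 CPM (median 221) in mice 41-59, 22.5 to 275 CPM (median 43.1) in mice 21-40 and 31.9 to 531 CPM (median 145) in mice 1-20. Of 17 mice 21-40, 15 lay below the median of mice 1-20, and 7 of 14 mice 41-59 exceeded every mouse of block 21-40. Its log2 fold change was 2.09 ± 0.42 in mice 41-59 against mice 21-40 (adjusted p 0.0173) and -1.31 ± 0.39 in mice 21-40 against mice 1-20 (adjusted p 0.0249, edgeR).

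Fosb, a partner of Jun in the AP-1 factor, had medians of 71.9, 4.31 and 26.2 CPM in mice 41-59, mice 21-40 and mice 1-20, with ranges of 3.36 to 199, 0 to 77.1 and 3.43 to 194 CPM. It was higher by 2.81 ± 0.59 in mice 41-59 against mice 21-40 (adjusted p 0.0348) and lower by 2.10 ± 0.56 in mice 21-40 against mice 1-20 (log2 fold change -2.10, adjusted p 0.0143, edgeR). Fos itself fell in mice 21-40 against mice 1-20 (-1.53 ± 0.46, adjusted p 0.0280), while mice 41-59 against mice 21-40 had 2.20 ± 0.50 and did not pass (adjusted p 0.0593, edgeR). The spread within a block was wide and shared between genes: mice 41, 46, 47, 50, 51, 53 and 54 were the 7 highest of block 41-59 for Egr1, Fos, Fosb and Btg2 alike. All 9 calls between the later blocks were lost without mouse 53, when 0 genes passed by edgeR. Mouse 53 belongs to neither block in the contrast of mice 21-40 against mice 1-20, and the calls there of Egr1, Fos and Fosb held against each of the 51 libraries left out.

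Btg2, an antiproliferative gene induced with this group, spanned 63.5 to 971 CPM (median 139) in mice 41-59, 22.2 to 178 CPM (median 62.4) in mice 21-40 and 46.1 to 263 CPM (median 93.4) in mice 1-20. All 14 mice 41-59 exceeded the median of mice 21-40, and the log2 fold change was 1.81 ± 0.33 (adjusted p 0.00755, edgeR). Its upstream sequence is shown because it holds the full palindrome bound by the cAMP-responsive factor CREB, which is one of the routes by which such genes are induced. The window is on GRCm38 from RefSeq, at chr1:134079156-134079405 on the minus strand, with the match in capitals.
Btg2: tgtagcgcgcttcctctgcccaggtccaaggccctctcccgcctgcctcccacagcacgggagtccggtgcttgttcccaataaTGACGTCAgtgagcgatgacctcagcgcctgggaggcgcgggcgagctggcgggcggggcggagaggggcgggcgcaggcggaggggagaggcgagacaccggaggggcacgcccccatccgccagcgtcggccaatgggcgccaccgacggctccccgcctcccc
The element TGACGTCA, searched for on both strands, ended 158 bases before the start. It occurred in 439 of 27025 promoters of that length (1.62%) and in 2 of 18 immediate early promoters matched, those of Btg2 and Dusp1.

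Protein quality control and oxidative phosphorylation genes were lower in mice 21-40 than in mice 1-20, by small amounts. Among all genes tested, 4.91% were lower in mice 21-40 and 1.07% in mice 41-59. Of 31 proteasome subunit genes 13 fell and 0 rose (median log2 fold change -0.19), and of 43 nuclear genes of the respiratory chain 13 fell and 0 rose (median -0.21). In mice 41-59 the corresponding counts were 0 of 31 and 2 of 43 lower, with medians of -0.12 and -0.14, and the difference between the later blocks had no call in either list. Psma4, a subunit of the 20S core, spanned 76.6 to 109.7 CPM (median 89.0) in mice 41-59, 76.5 to 105 CPM (median 81.8) in mice 21-40 and 74.0 to 132 CPM (median 102) in mice 1-20. The ranges of both later blocks lay within that of mice 1-20, but 16 of 17 mice 21-40 were below the median of mice 1-20. The log2 fold change was -0.27 ± 0.06 in mice 21-40 (adjusted p 0.00499, edgeR). The complex I subunit gene Ndufb8 passed in both contrasts, with -0.33 ± 0.09 in mice 41-59 and -0.31 ± 0.09 in mice 21-40. Of 21 genes of the unfolded protein response 5 fell in mice 21-40 and 0 in mice 41-59. They were Calr, Pdia6, Manf, Hsp90b1 and Creld2, chaperones and secreted factors of the endoplasmic reticulum, and Calr had the smallest adjusted p of the list (-0.31 ± 0.05, adjusted p 0.000170, edgeR).

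Transcripts of the mitochondrial genome were mostly lower in both later blocks than in mice 1-20, and few passed. The log2 fold change was above 0 for 2 of 13 in each contrast, with medians of -0.21 in mice 41-59 and -0.17 in mice 21-40. In mice 41-59, 0 passed as higher and 1 as lower, and in mice 21-40, 2 passed as higher (mt-Nd3 and mt-Atp8) and 1 as lower. Cytochrome b (mt-Cytb) was lower in both later blocks, with medians of 16907, 16466 and 21214 CPM in mice 41-59, mice 21-40 and mice 1-20 and log2 fold changes of -0.39 ± 0.11 and -0.41 ± 0.11. The short transcript mt-Nd3, a complex I subunit, was higher in mice 21-40 by 1.44 ± 0.31 (adjusted p 0.00363, edgeR), and it varied from 204 to 2752 CPM within that block. Mitochondrial transcripts made up 15.2% ± 4.5 of counts in mice 41-59, 16.1% ± 3.1 in mice 21-40 and 18.5% ± 3.7 in mice 1-20 (SD), and neither later block passed against mice 1-20 (adjusted permutation p 0.138 and 0.168). Lists of slow, fast and shared sarcomere genes, glycolysis and the tricarboxylic acid cycle had 0 calls in any contrast by edgeR. Myh4, the main fast myosin gene of this muscle, had medians of 42296, 33891 and 28956 CPM in mice 41-59, mice 21-40 and mice 1-20, with adjusted p of 0.400 and 0.759 against mice 1-20 by edgeR.

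Some stress and synapse genes were called as well. Over all genes tested, 2.44% were higher and 1.07% lower in mice 41-59, and 5.11% higher and 4.91% lower in mice 21-40. Of 22 heat shock and chaperone genes, 4 fell in mice 21-40 (Hspe1, Hsf1, Hspa1a and Hspa1b) and 0 in mice 41-59, and the inducible chaperone Hspa1a had medians of 15.9, 9.48 and 19.3 CPM in mice 41-59, mice 21-40 and mice 1-20. Of 15 genes of the Nrf2 oxidative stress response, 3 rose in mice 41-59 (Hmox1, Srxn1 and Txnrd1) and 0 in mice 21-40. Hmox1, the haem oxygenase gene, was higher by 1.62 ± 0.36 in mice 41-59 (adjusted p 0.00766), and its call was lost without mouse 53 (adjusted p 0.0651, edgeR). Of 19 denervation and synapse genes, 2 rose and 1 fell in mice 41-59 (Runx1 and Musk, and Chrna1), and 2 rose and 1 fell in mice 21-40 (Hdac4 and Musk, and Rapsn). The list as a whole did not lean, with median log2 fold changes of -0.05 and 0.03. Musk, the receptor kinase of the neuromuscular junction, rose in mice 41-59 (0.95 ± 0.25) and in mice 21-40 (0.80 ± 0.23). Chrna1, the acetylcholine receptor alpha subunit gene, fell in mice 41-59 (-0.52 ± 0.15, adjusted p 0.0441, edgeR), a call lost in 19 of the 51 fits that left out 1 library. Genes of androgen and oestrogen response and of the tricarboxylic acid cycle had 0 calls in any contrast by edgeR.

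**Figure D3:**
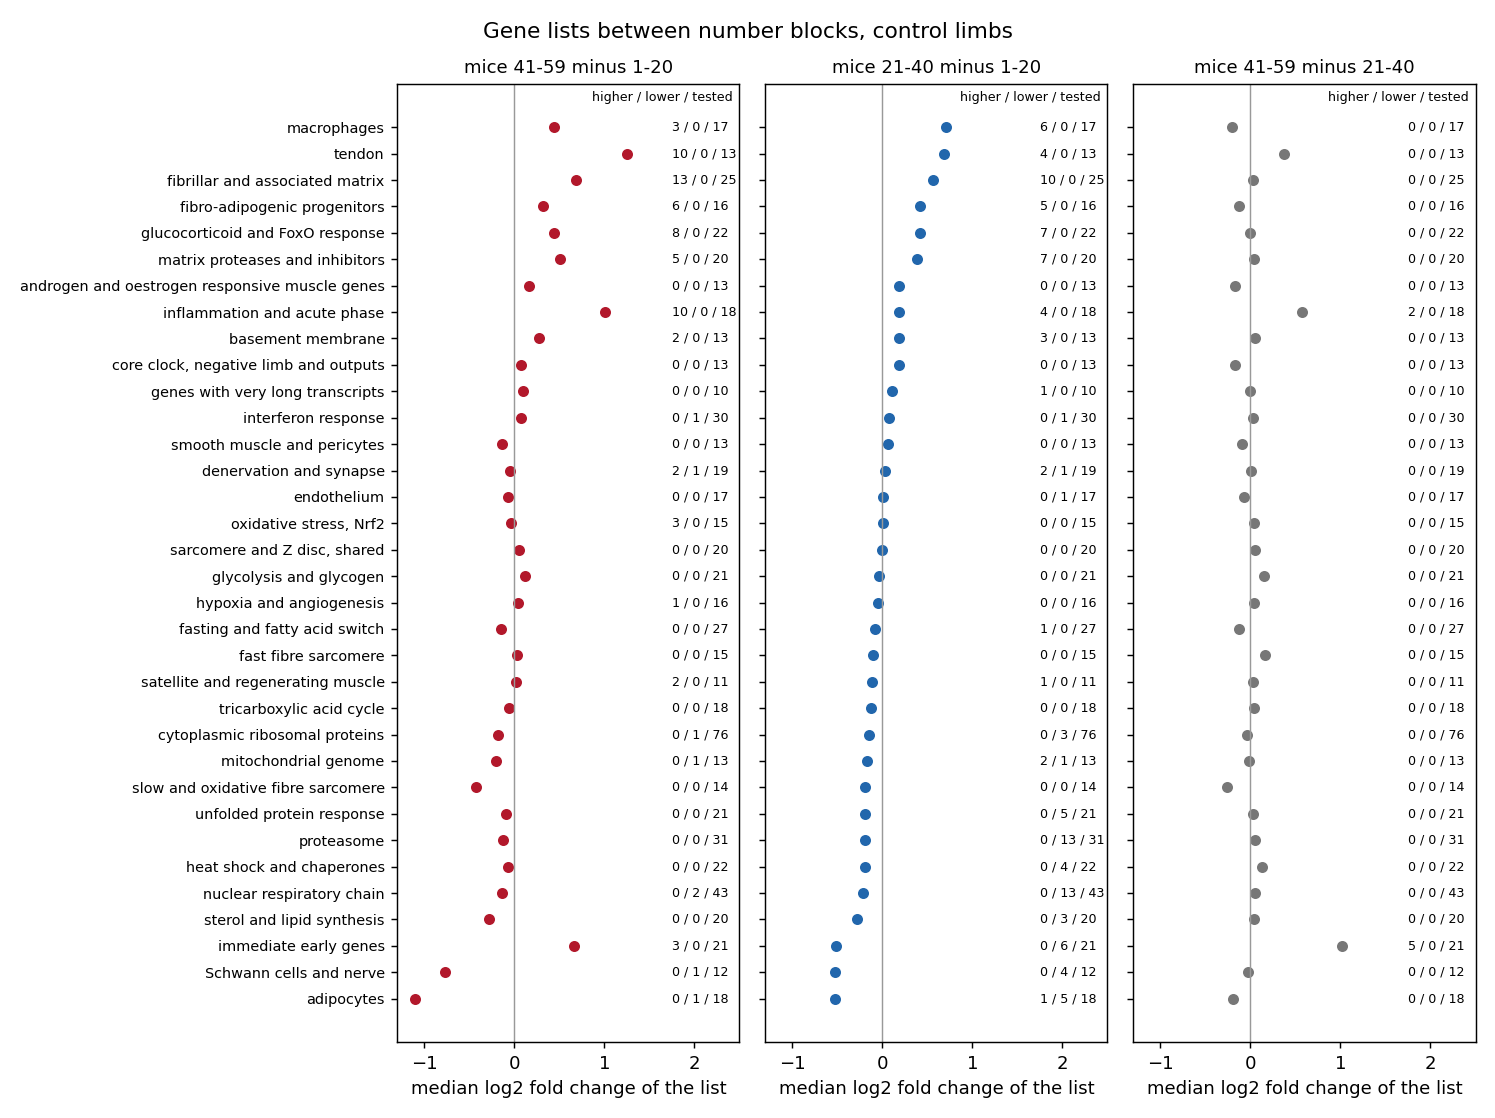
Median log2 fold change of each gene list with at least 10 tested members, for mice 41-59 minus 1-20, 21-40 minus 1-20 and 41-59 minus 21-40, with the number of members called higher, called lower and tested beside each point. Tendon, matrix and macrophage lists lie to the right against mice 1-20, and the immediate early list lies to the left in mice 21-40 against mice 1-20 (median -0.51) and to the right in the other panels (0.67 and 1.02).

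Some fat genes were called lower in the later blocks, and the calls of Ucp1 and Fasn in mice 21-40 rested on mouse 13 of block 1-20. Of 18 adipocyte markers, 5 fell and 1 rose in mice 21-40, and 1 fell in mice 41-59. The shares of all tested genes that fell were 4.91% and 1.07%. Without mice 13, 46, 50 and 53, 0 of 18 fell in either later block and 1 rose in mice 21-40. The other called fat genes are not followed singly here. Mouse 13 had 1039.9 CPM of the brown fat uncoupler Ucp1 and 4539.6 CPM of the fatty acid synthase gene Fasn. It also had 106 CPM of S100b, a member of the Schwann cell and nerve list. Without mouse 13 the adjusted p for Ucp1, Fasn and S100b in mice 21-40 were 0.879, 0.860 and 0.183 by edgeR. Ucp1 was at 0 in more than 50% of libraries. Prx, a gene of peripheral nerve myelin, had medians of 7.47, 8.90 and 12.4 CPM in mice 41-59, mice 21-40 and mice 1-20, with ranges of 2.74 to 28.0, 4.56 to 18.2 and 5.36 to 53.3 CPM that overlapped. Its log2 fold change was -0.93 ± 0.26 in mice 21-40 (adjusted p 0.0180) and -0.81 ± 0.27 in mice 41-59, which did not pass (adjusted p 0.0860, edgeR). Schwann cell and nerve markers summed to 164 ± 92.3, 161 ± 53.7 and 273 ± 186 CPM in mice 41-59, mice 21-40 and mice 1-20 (SD), and neither later block passed against mice 1-20 (adjusted permutation p 0.168 and 0.0872).

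Another large fall in mice 41-59 also rested on few animals. Apobec3, a cytidine deaminase gene that restricts retroviruses, had medians of 8.34, 11.2 and 11.1 CPM in mice 41-59, mice 21-40 and mice 1-20. Males 15 and 17 of block 1-20 had 2518 and 589 CPM, and no other mouse exceeded 33.4 CPM. Its log2 fold change of -3.31 ± 0.91 in mice 41-59 lost its call without mouse 15 (adjusted p 0.0862, edgeR). Nlrc3, Kank4 and the leukotriene synthase gene Ltc4s, which also fell in mice 41-59, were low in all blocks, with medians between 1.17 and 4.50 CPM, and each lost its call in mice 41-59 in between 2 and 9 of the 51 fits that left out 1 library.

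Transcript length and GC content both moved with the fold changes of the later blocks. Over 11705 genes matched to a transcript length (97.3%), called genes that rose had a median length of 4191 bases in mice 41-59 and 4850 bases in mice 21-40, and called genes that fell had 1962 and 2039 bases, against 3419 bases over all matched genes. Called genes that rose had a median GC content of 48.9% in mice 41-59 and 45.3% in mice 21-40, and called genes that fell had 51.7% and 53.1%, against 49.9% over all matched genes. Longer transcripts and those of lower GC content thus leaned higher in both contrasts, and the shares of length and of GC content were not separated. By decile of length, the median log2 fold change of all genes ran from -0.16 for the shortest to 0.09 for the longest in mice 41-59 and from -0.17 to 0.13 in mice 21-40. Between mice 41-59 and mice 21-40 the deciles stayed within 0.02 and -0.04. The tested genes of the proteasome list had a median length of 1819 bases and those of the respiratory chain list 1363 bases, against 5348 bases for the matrix list. With an offset for length and GC content, 835 genes passed in mice 21-40 (302 higher, 533 lower) and 334 in mice 41-59. Under that offset 9 of 31 proteasome genes and 5 of 43 respiratory chain genes fell in mice 21-40, and 13 and 7 of 25 matrix genes rose in mice 41-59 and in mice 21-40.

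**Figure D4:**
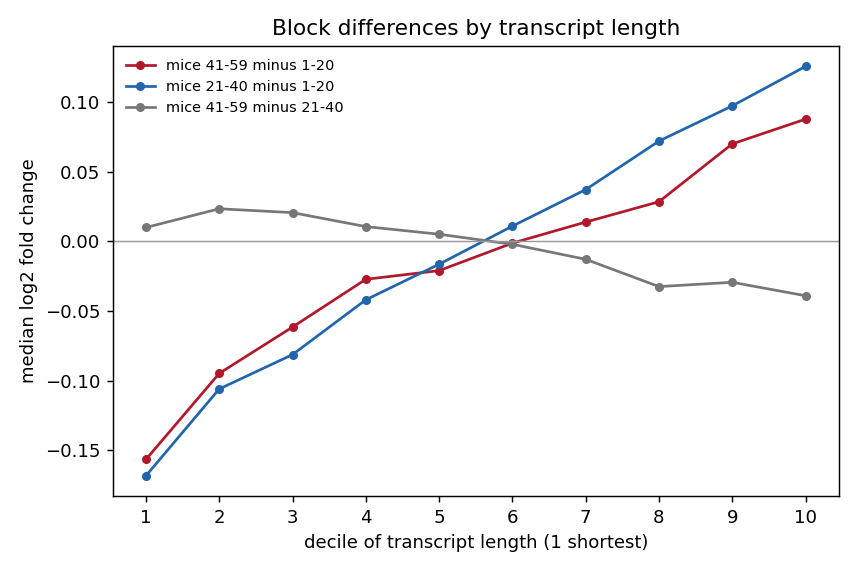
Median log2 fold change of all tested genes by decile of transcript length (1 shortest, 10 longest), for mice 41-59 minus 1-20, 21-40 minus 1-20 and 41-59 minus 21-40. Both contrasts against mice 1-20 climb with length, from -0.16 and -0.17 to 0.09 and 0.13, and the contrast between the later blocks stays near 0.

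More block differences passed in males than in females. In males alone, 161 genes passed between mice 41-59 and mice 1-20 (1.40% of 11527 tested) and 435 between mice 21-40 and mice 1-20 (3.77%), against 0 and 3 (0.0266% of 11268 tested) in females alone by edgeR. Unadjusted p under 0.05 was reached by 1321 and 2311 genes in males and 1436 and 1706 in females. The 3 genes in females were Hfe, Lpin1 and Papolg, named after their values were seen, and of these Lpin1 passed in males as well. A direct test of the difference between sexes called 1 gene (0.00832%), with 847 at an unadjusted p under 0.05, so a call in males alone is not a tested difference from females. Of 155 genes called in males between mice 41-59 and mice 1-20 and tested in females, 141 (91.0%) had the same sign in females, and of 426 between mice 21-40 and mice 1-20, 346 (81.2%). Over all 11160 genes tested in both sexes the same-sign shares were 61.9% and 63.6%.

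Connective tissue lists had larger medians in males, and the difference between the sexes was not tested for a list. Matrix genes had a median log2 fold change of 0.96 in males and 0.30 in females between mice 41-59 and mice 1-20, and of 1.09 in males and -0.01 in females between mice 21-40 and mice 1-20. Tendon genes had 1.86 in males and 0.79 in females for mice 41-59, and 1.53 in males and -0.02 in females for mice 21-40. Fmod, the collagen-binding proteoglycan fibromodulin, had medians of 396, 357 and 89.7 CPM in males of mice 41-59, mice 21-40 and mice 1-20, and of 333, 283 and 254 CPM in females. Males of block 1-20 were thus the lowest set. For Col1a1 in mice 21-40 the log2 fold change was 1.79 in males and 0.10 in females, and its interaction with sex did not pass (adjusted p 0.604, edgeR). Glucocorticoid and FoxO genes were closer, with 0.37 in males and 0.43 in females for mice 41-59 and 0.54 in males and 0.24 in females for mice 21-40. Gas6 was nearly the same in both sexes, with -0.53 in males and -0.65 in females for mice 41-59 and -0.58 in males and -0.57 in females for mice 21-40.

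**Figure D5:**
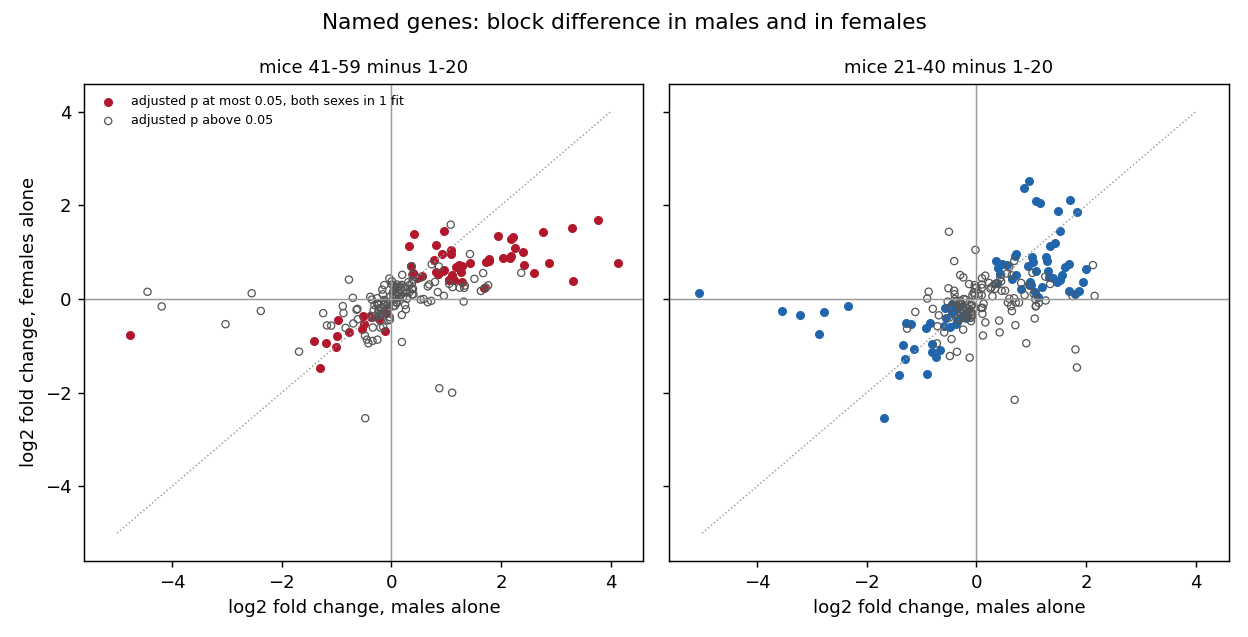
Log2 fold change of each named gene in males alone (x axis) and in females alone (y axis), for mice 41-59 minus 1-20 (left) and 21-40 minus 1-20 (right), with filled points for genes that passed with both sexes in 1 fit and a dotted line of equality. Most filled points share their sign in males and females, and points far from the line include Fasn with -3.55 in males and -0.26 in females and H2-Aa with 0.97 in males and 2.51 in females, both for mice 21-40.

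The immobilized limbs of the same 51 mice gave a second look at the blocks, through the same animals. Of 12964 genes tested there, 182 passed between mice 41-59 and mice 1-20 (1.40%; 0.856% higher and 0.548% lower) and 737 between mice 21-40 and mice 1-20 (5.68%; 4.63% higher and 1.06% lower). Between mice 41-59 and mice 21-40, 23 passed (0.177%; 0.00771% higher and 0.170% lower). Leaving out 5 immobilized limbs whose own Acta1 was low gave 754 (6.15%), 860 (7.01%) and 0 of 12263 genes, with 495 at an unadjusted p under 0.05 in the last. Gas6 was lower there too, by log2 fold changes of -0.68 (adjusted p 0.00604) and -0.61 (adjusted p 0.00273), and Dcn was higher by 0.93 (adjusted p 0.00133) and 0.84 (adjusted p 0.000888, edgeR), in mice 41-59 and in mice 21-40 against mice 1-20. Slc7a8 and Foxo1 passed in mice 21-40 (0.98 and 0.85) and not in mice 41-59 (0.58 and 0.78).

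Gene lists in the immobilized limbs had the following counts. Immediate early genes in the immobilized limbs had 5 higher and 0 lower of 22 in mice 21-40 against mice 1-20 (median log2 fold change 0.40), and 0 called between mice 41-59 and mice 21-40 (median -0.32). Egr1 had -0.10 in mice 21-40 against mice 1-20 and -0.16 in mice 41-59 against mice 21-40 in the immobilized limb, and passed in neither. Proteasome genes had 0 lower of 31 in mice 21-40, or 5 lower without the limbs of low Acta1 (where 1.96% of all genes were lower), and nuclear respiratory chain genes had 0 of 43 in both settings. Macrophage markers had 7 of 20 higher in mice 21-40 (median 1.23), and matrix genes 3 of 25 (median 0.84). Whether block differences depend on the limb was not tested.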

How the data were processed

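Gastrocnemius RNA was extracted with a column kit for fibrous tissue, and stranded total RNA libraries were made after ribosomal RNA removal, per the labels' protocols. The authors deposited raw read counts per gene symbol in 2 tables, 1 per sex, with 32544 symbols and no row that names no gene. Which aligner, counter and genome build they used is not given in the sources used here. Control limbs were taken by label, and block from the mouse number. These counts entered edgeR 4.0.16 (R 4.3.3): TMM scaling, the default expression filter (12025 genes), sex and block as terms, and a quasi-likelihood test of each contrast with Benjamini-Hochberg adjustment over all genes tested. CPM values use TMM library sizes. Lists are described by counts and medians, without a set test. Library sums were compared with two-sided permutation tests within sex (100000 resamples, adjusted over 48 tests).

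Genes named were, per contrast, the 6 largest called changes in each direction whose average log2 CPM reached 1 or more and whose sign was shared by both sexes. Up to 4 per list with the smallest p for any block difference, and a fixed set, were added. Further genes were chosen after their values were seen. Among Gas6, Slc7a8, Lpin1, Bach1, Egfr, Inmt, Ephx1 and Aen, the rule by size picked only Inmt and Ephx1. The limbs, blocks and all 44 lists were chosen with earlier results of these data known. Alternatives used limma 3.58.1, DESeq2 1.42.0, other filters, scalings, covariates and sets of limbs. Transcript lengths come from GENCODE M21 and promoter windows from RefSeq, both on GRCm38. The scripts were tested on simulated data. Total counts of 1716485 to 6070437 per library limit what can be seen for genes under about 1 CPM, where a value rests on few reads. Mice are separate animals, and each gave 1 control limb. A result that needs an item withheld for evaluation is not reported here.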

Additional observations from a re-analysis of the deposited data

Results flagged for a closer look

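The number of genes whose block difference depended on sex was 1, which is Grasp, a scaffold protein gene of membrane trafficking; the joint test of the interaction had an adjusted p of 0.0304 by edgeR. The difference in log2 fold change, males minus females, was 1.10 ± 0.23 (SE) for mice 41-59 against mice 1-20 and 1.08 ± 0.22 for mice 21-40 against mice 1-20. In males Grasp was higher by 0.93 and 0.90, and in females the values were -0.18 and -0.19. Neither contrast passed by itself (adjusted p 0.135 and 0.0841, edgeR). Both differences share the mice numbered 1-20. Every block held more than 10 limbs, so single limbs were not screened with a gap test.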

How the results depend on the processing

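For control limbs, mice 41-59 minus mice 1-20, 422 genes passed. The count was 266 with limma voom, 2019 with all 56 control limbs, 260 with percent mitochondrial counts as a covariate, 0 in females alone, 161 in males alone, 274 without males 15 and 16, 1 with adipocyte, tendon and nerve marker sums as covariates and 108 without mice 13, 46, 50 and 53; leaving out each library in turn gave 212 to 608. For control limbs, mice 21-40 minus mice 1-20, 1204 passed, against 588 with all 56 limbs, 3 in females alone, 435 in males alone and 293 with marker covariates, and 869 to 1433 with 1 library left out. For control limbs, mice 41-59 minus mice 21-40, 9 passed, against 25 with DESeq2, 4 with voom, 23 with no low-count filter, 79 with all 56 limbs, 5 with robust estimation, 14 with a length and GC offset, and 0 in females alone, in males alone, with marker covariates and without mice 13, 46, 50 and 53. With 1 library left out it was 0 (without mouse 53) to 19. For control limbs, any block difference, 963 passed, against 1782 with all 56 limbs, 1 in females alone, 360 in males alone and 81 with marker covariates, and 676 to 1190 with 1 library left out. For control limbs, block by sex interaction, 1 passed, against 11 with DESeq2, 18 with limbs under 75% of the median Acta1 left out, 6 without males 15 and 16, 2 without mice 13, 46, 50 and 53, and 0 with no filter, with all 56 limbs, with percent mitochondrial counts and with the length and GC offset.

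Of 167 called values of named genes, 167 held with median-of-ratios scaling, 118 with voom, 146 with the length and GC offset and 42 with marker covariates, and of 165 that could be fitted without mice 13, 46, 50 and 53, 105 held. The following reversed on the log2 scale. With all 56 limbs Bst2 had 0.45 in mice 41-59 and 0.091 in mice 21-40, Ltc4s 0.96 and Ucp1 0.77 in mice 41-59, and Creld2 0.076, Manf 0.070 and Rps6 0.026 in mice 21-40. With marker covariates Fmod had -0.0084 in mice 41-59 and -0.054 in mice 21-40, Il1b -0.30 in mice 41-59, and Fasn 0.40, Mbp 0.027, S100b 0.063 and Scd1 0.30 in mice 21-40. Apobec3 had 0.14 in females alone in mice 21-40. Fasn in mice 21-40 had 0.058 with DESeq2, 0.18 with limbs under 75% of the median Acta1 left out and 0.17 without mice 13, 46, 50 and 53. The causes were not tested, except that sex-specific fits hold fewer limbs and the marker covariates contain Fmod, Fasn, Scd1, Mbp and S100b themselves.

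No paired analysis was possible because the blocks hold different mice, 1 control limb each. The blocks differ in numbers that the labels do not explain, hold outbred animals, and lost unequal numbers of limbs to the Acta1 rule (4, 1 and 0 in mice 41-59, mice 21-40 and mice 1-20). Genes under about 1 CPM rest on few reads.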
